A study of Mus musculus with 16 samples.

Results

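The nuclear genes of the mitochondrial ribosome, those with a symbol starting Mrpl (large subunit) or Mrps (small subunit) followed by a digit, were followed in mouse liver 12 h after partial hepatectomy (PHx) or a sham operation. Pseudogenes were left out, and each gene was read from its probe set with the highest mean level. The rule found 74 genes, 46 Mrpl and 28 Mrps, of 30142 genes measured. Each of the 74 had 1 probe set with a single gene symbol. Mrpl30, Mrpl53 and Mrps6 lay on probe sets shared with other symbols and were not used here. The study measured total liver RNA on 16 Affymetrix arrays, 4 for each of 4 groups. Ppara fl/fl mice, in which Ppara carries loxP sites and is otherwise intact, served as wild type, and PparaΔHep mice (ΔHep below) carry a disruption of Ppara (PPARα, a nuclear receptor for fatty acids) limited to hepatocytes. The groups were fl/fl after sham, fl/fl after PHx, ΔHep after sham and ΔHep after PHx. The labels name neither the driver of the deletion nor the age or sex of the mice. The sample titles carry a different number for each array but leave it unsaid whether each came from its own mouse. The spread behind each p-value is that among the arrays of a group, which may be technical in part. The labels explain the choice of time by the fat that builds up in the liver over the first day after PHx.

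The mitochondrial ribosome translates the few messenger RNAs encoded by mitochondrial DNA, all for subunits of the respiratory chain and ATP synthase. Its RNAs come from mitochondrial DNA, but its proteins are made in the cytosol from nuclear genes and imported. Some of these proteins have counterparts in bacterial ribosomes, and others were added in the mitochondrial lineage. PHx removes part of the liver, and the hepatocytes that remain enter the cell cycle and enlarge.

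On the values as deposited, most of the mitoribosomal genes stood lower after PHx than after sham in both genotypes. In fl/fl livers 35 of the 74 were called lower and 1 higher at adjusted p below 0.05 (limma, all 30142 genes), against 20.8% of all genes called lower and 11.9% called higher. In ΔHep livers 48 were called lower and 0 higher, against 17.5% and 14.8% of all genes. The median log2 change over the 74 was -0.19 in fl/fl and -0.27 in ΔHep, where the medians over all genes were -0.04 and 0.01. The comparison with all genes is uneven, because most genes on the array lie near background. Among the 5656 genes with a mean log2 level of 5 or more, 37.0% were called lower in fl/fl and 40.3% in ΔHep, and their median changes were -0.17 and -0.21. Of the 38 members at that level, 19 were called lower in fl/fl and 29 in ΔHep, with medians of -0.24 and -0.31. On this scale well-measured genes as a whole were thus called lower more often than all genes, and whether the members differ from them was not tested. Whether the changes lay above or below 0 depended on the scaling of the arrays. In 1 scaling the median of the positive control probe sets was subtracted from each array. After it 0 members were called lower in either genotype, 7 were called higher in fl/fl and 33 in ΔHep. Calls of lower that became calls of higher numbered 0 in fl/fl and 9 in ΔHep. The medians turned to 0.06 and 0.19. That subtraction shifts the change of every gene in a genotype by the same amount, and the median of all genes then stood above the members' median, as given below. The counts have no share of all genes under that scaling beside them and are not a result about the members alone.

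**Figure D1:**
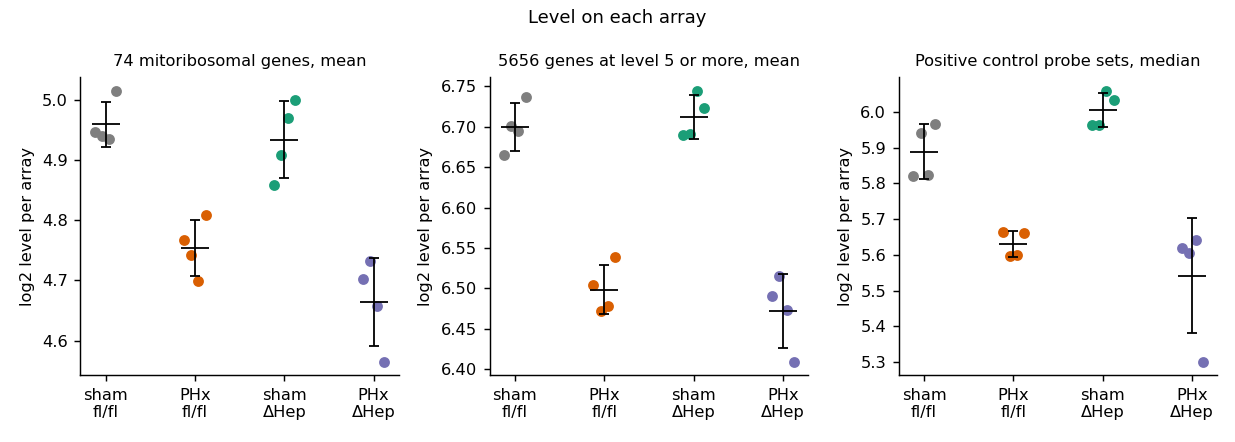
Each point is 1 array, with 4 arrays in each of 4 groups, and the bars are the group mean and SD. The vertical axes give log2 levels of the mean of the 74 mitoribosomal genes (left), the mean of the 5656 genes at level 5 or more (middle) and the median of the positive control probe sets (right). All PHx arrays lie below all sham arrays in each panel, so the members' fall on the deposited scale (4.93 to 5.02 to 4.70 to 4.81 in fl/fl) is not seen when the controls on the right are subtracted.

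The mean level of the 74 genes on the sham fl/fl arrays 1 to 4 was 4.95, 4.94, 4.93 and 5.02, and on the PHx fl/fl arrays it was 4.77, 4.74, 4.70 and 4.81. On the sham ΔHep arrays it was 4.86, 4.91, 4.97 and 5.0004, and on the PHx ΔHep arrays 4.70, 4.73, 4.66 and 4.56. Every PHx array was below every sham array, while the genotypes overlapped within each operation. The mean of the 5656 well-measured genes moved in the same direction, from 6.70 ± 0.03 to 6.50 ± 0.03 in fl/fl and from 6.71 ± 0.03 to 6.47 ± 0.05 in ΔHep (SD, n = 4 arrays). The positive control medians fell too, from 5.89 ± 0.08 to 5.63 ± 0.04 in fl/fl and from 6.01 ± 0.05 to 5.54 ± 0.16 in ΔHep. Other controls did not all move that way. Medians of the probe sets named ERCC went from 1.82 to 1.56 in fl/fl and from 1.79 to 1.64 in ΔHep. Those of the antigenomic background went from 1.26 to 1.03 and from 1.23 to 1.00. Negative control medians went up, from 1.90 to 2.02 and from 1.98 to 2.02. Which of these controls is a fit reference was not tested. PHx ΔHep array 4 had the lowest positive control median (5.30) and the lowest mean of the 74 genes. The part of these shifts in the results below was not tested. Subtracting each array's median over all probe sets, or quantile normalization, enlarged the fall instead, to medians of -0.30 and -0.26 in fl/fl and -0.42 and -0.33 in ΔHep, and cyclic loess reduced it to -0.07 and -0.15. The median of all genes moved by over 0.1 under 3 of these scalings: it was -0.15 and -0.14 with array medians subtracted, -0.14 and -0.10 after quantile normalization, and 0.22 and 0.47 with positive controls subtracted, in fl/fl and ΔHep.

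Hepatocyte markers (Alb, Apoa1, Ttr and 4 others) were high on every array, with mean levels of 10.76 to 10.83 after sham and 10.61 to 10.67 after PHx in fl/fl, and 10.77 to 10.81 and 10.69 to 10.74 in ΔHep. Kupffer cell markers moved with the operation: 4 of 7 were called lower in fl/fl and 7 of 7 in ΔHep, and their mean ranged from 5.16 to 5.78 and from 4.75 to 5.18 in sham and PHx fl/fl and from 5.31 to 5.90 and from 4.56 to 5.13 in ΔHep. Of 6 sinusoidal endothelial markers 4 were called lower and 1 higher in each genotype, and of 6 stellate cell markers 3 were called lower. Of 4 cholangiocyte markers 1 was called lower in fl/fl and 0 in ΔHep, and of 5 neutrophil markers 1 was called higher in each. Of all genes 20.8% were called lower and 11.9% higher in fl/fl, and 17.5% and 14.8% in ΔHep. Whether the marker counts differ from those shares was not tested. The hepatocyte marker means given above lay lower after PHx without overlap in each genotype. The neutrophil markers' mean was 4.12 on PHx fl/fl array 2, against 2.56 to 2.90 on the other PHx fl/fl arrays and 2.64 to 3.29 on sham fl/fl arrays. The part of these cells in the members' change was not tested, and in whole liver fewer cells of a type and less RNA per cell cannot be told apart. Ppara itself stood at 6.45 to 7.02 on sham fl/fl and 6.05 to 6.43 on sham ΔHep arrays, and overlapped between genotypes after PHx (5.68 to 7.24 and 4.70 to 6.26). Its difference between genotypes over both operations was -0.84 ± 0.24 (SE, adjusted p = 0.377). Whether its probes lie in the deleted part is not given in the sources used here.

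Sequences just before the transcription start were looked at as a feature that the choice of members did not use. A link between them and the PHx change was not tested. RefSeq promoters (build GRCm38.p6, 250 bases before to 50 after the start) matched 65 of the 74 by symbol. Motifs of NRF1 and of ETS factors such as GABP, the activators known for nuclear genes of mitochondrial proteins, were searched on both strands by the NRF1 consensus of 10 letters and by CCGGAAG for ETS, and YY1 by AANATGGC. The NRF1 letters were found in 12 of the 65 promoters (18.5%), against 5.19% of all 27025 genes of the table and 13.0% of 3180 protein-coding genes at level 5 or more. The ETS letters were found in 24 (36.9%, against 9.93% and 20.9%) and the YY1 letters in 20 (30.8%, against 6.96% and 10.7%). Of these 3 motifs, 44 members had at least 1 (67.7%, against 19.4% and 37.7%). The YY1 letters hold an ATG, and in 15 members they lay after the start. The SP1 letters GGGCGG were in 33 (50.8%, against 38.2% and 67.5%) and the E-box CACGTG in 5 (7.69%, against 8.09% and 12.5%). A match is only a run of letters, not a site shown to be bound.

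The stretches below come from members that were called lower in both genotypes on the deposited scale, or in ΔHep for Mrpl42, and were chosen with their values known, to show how such motifs sit. Capitals mark only the motif named here for each gene, and each stretch is read toward the start of its gene. Other searched letters, an E-box in Mrpl36 and SP1 letters in Mrpl42 and between Mrps11 and Mrpl46, stand in lower case. Mrpl12 (chr11:120484387-120484636, plus strand) has the NRF1 letters, read on the other strand, 81 to 72 bases before the start. Mrpl34 (chr8:71464676-71464925, plus strand) has the ETS letters 37 to 31 bases before the start, and Mrpl36 (chr13:73330759-73331008, plus strand) has the YY1 letters, read on the other strand, 30 to 23 bases before it. Mrpl42 (chr10:95501950-95502199, minus strand) and Mrpl34 both hold the letters of the motif bound by ZNF143 and THAP11 (capitals starting ACT), at 45 to 35 and 203 to 193 bases before the start.
Mrpl12: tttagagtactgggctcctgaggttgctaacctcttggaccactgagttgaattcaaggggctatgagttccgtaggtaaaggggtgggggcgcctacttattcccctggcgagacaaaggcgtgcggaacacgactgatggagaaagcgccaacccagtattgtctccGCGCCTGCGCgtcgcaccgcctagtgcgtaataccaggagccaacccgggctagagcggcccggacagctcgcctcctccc
Mrpl34: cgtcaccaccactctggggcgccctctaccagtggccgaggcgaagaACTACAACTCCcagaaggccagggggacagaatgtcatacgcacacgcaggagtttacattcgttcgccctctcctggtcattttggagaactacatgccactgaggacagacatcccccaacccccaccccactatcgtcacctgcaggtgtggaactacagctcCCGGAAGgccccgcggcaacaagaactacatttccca
Mrpl36: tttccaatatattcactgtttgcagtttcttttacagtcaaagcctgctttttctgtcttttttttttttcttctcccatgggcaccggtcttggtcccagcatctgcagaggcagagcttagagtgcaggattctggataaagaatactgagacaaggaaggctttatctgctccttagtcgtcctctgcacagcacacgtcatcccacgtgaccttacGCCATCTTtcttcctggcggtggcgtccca
Mrpl42: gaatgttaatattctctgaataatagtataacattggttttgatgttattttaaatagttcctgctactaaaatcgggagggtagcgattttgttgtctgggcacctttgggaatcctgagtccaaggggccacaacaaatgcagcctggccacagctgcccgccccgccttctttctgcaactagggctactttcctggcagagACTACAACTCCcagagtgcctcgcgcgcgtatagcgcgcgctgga
The ZNF143 and THAP11 letters were searched after they had been noticed in 2 of these promoters, and 4 members (Mrpl24, Mrpl34, Mrpl42 and Mrpl50) held them (6.15%, against 1.17% of all genes and 3.08% of the well-measured protein-coding genes).

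Another shared feature was position: 25 of the 65 (38.5%) had a neighbour starting in the opposite direction within 1000 bases, against 12.3% of all genes and 18.8% of the well-measured protein-coding genes. Mrps11 and Mrpl46, whose products lie in different subunits, start 42 bases apart on opposite strands and share the 41 bases between them (chr7:78783090-78783130, read toward Mrps11, no capitals).
Mrps11 and Mrpl46: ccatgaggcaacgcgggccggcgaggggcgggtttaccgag
Mrps11, the counterpart of a bacterial small subunit protein, stood at 4.07, 3.91, 3.98 and 3.82 on the sham fl/fl arrays and at 3.68, 3.66, 3.65 and 3.58 after PHx. In ΔHep it stood at 3.74, 3.80, 3.84 and 3.78 after sham and at 3.58, 3.69, 3.61 and 3.64 after PHx. The operations did not overlap in either genotype, with changes of -0.30 ± 0.05 (SE, limma adjusted p = 4.91e-04) and -0.16 ± 0.05 (adjusted p = 0.0261). The ΔHep call was lost without sham array 2 or 3 or PHx array 1 or 3 (-0.18 to -0.14 over all arrays left out, adjusted p up to 0.0729). With positive controls subtracted the ΔHep change was 0.30 and was called higher (adjusted p = 0.00817). Mrpl46, a mitochondrial addition to the large subunit, changed by -0.23 ± 0.07 in each genotype (adjusted p = 0.0154 and 0.0150), and its ΔHep arrays overlapped between operations (3.41, 3.63, 3.45 and 3.35 after PHx, 3.62 to 3.77 after sham). Those calls were lost without PHx fl/fl array 2 (-0.18, adjusted p = 0.0530) and without PHx ΔHep array 4 (-0.19, adjusted p = 0.0533). With positive controls subtracted the changes were 0.032 (adjusted p = 0.767) and 0.24 (adjusted p = 0.0157), the second being a call of higher. Mrpl43 starts 116 bases from Twnk, the helicase of mitochondrial DNA, and Mrps12 147 bases from Sars2, the mitochondrial seryl-tRNA synthetase. Twnk changed by -0.31 ± 0.14 in fl/fl (adjusted p = 0.0913) and by -0.94 ± 0.14 in ΔHep (adjusted p = 1.20e-04, and -0.47 with adjusted p = 0.00109 when positive controls were subtracted), and Sars2 by -0.12 ± 0.06 (adjusted p = 0.102) and -0.16 ± 0.06 (adjusted p = 0.0333).

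By structural family, the large subunit had the larger share of its genes called lower on the deposited scale. The families differ in size, so each count is given with its number of members. Of all genes 20.8% were called lower in fl/fl and 17.5% in ΔHep, and of the genes at level 5 or more 37.0% and 40.3%. Of 29 large subunit proteins with a bacterial counterpart, 15 genes were called lower in fl/fl and 20 in ΔHep, with medians of -0.24 and -0.30. Of 19 mitochondrial additions to the large subunit, among them Mrps18a and Mrps30 in spite of their names, 10 and 15 were called lower, with medians of -0.27 and -0.33. In the small subunit the counts were 6 and 8 of 15 with a bacterial counterpart (medians -0.19 and -0.23) and 4 and 5 of 10 additions (medians -0.16 and -0.22). The 4 were Mrps22, Mrps23, Mrps25 and Mrps27, and the 5 were Mrps25, Mrps27, Mrps33, Mrps34 and Mrps35. After subtraction of positive controls the 4 medians were 0.02, -0.01, 0.07 and 0.10 in fl/fl and 0.16, 0.13, 0.23 and 0.25 in ΔHep, so the direction turned. The large subunit medians were below the small subunit medians on the deposited scale, after cyclic loess and after quantile normalization. Subtracting array or positive control medians shifts every gene alike and could not change that order. By symbol, 25 of 46 Mrpl and 10 of 28 Mrps genes were called lower in fl/fl, and 34 and 14 in ΔHep. The difference between the families was not tested. Mrps36, now known as a subunit of the 2-oxoglutarate dehydrogenase complex, is in none of these families, and it changed by -0.07 ± 0.06 and -0.15 ± 0.06 (adjusted p = 0.370 and 0.0577).

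**Figure D2:**
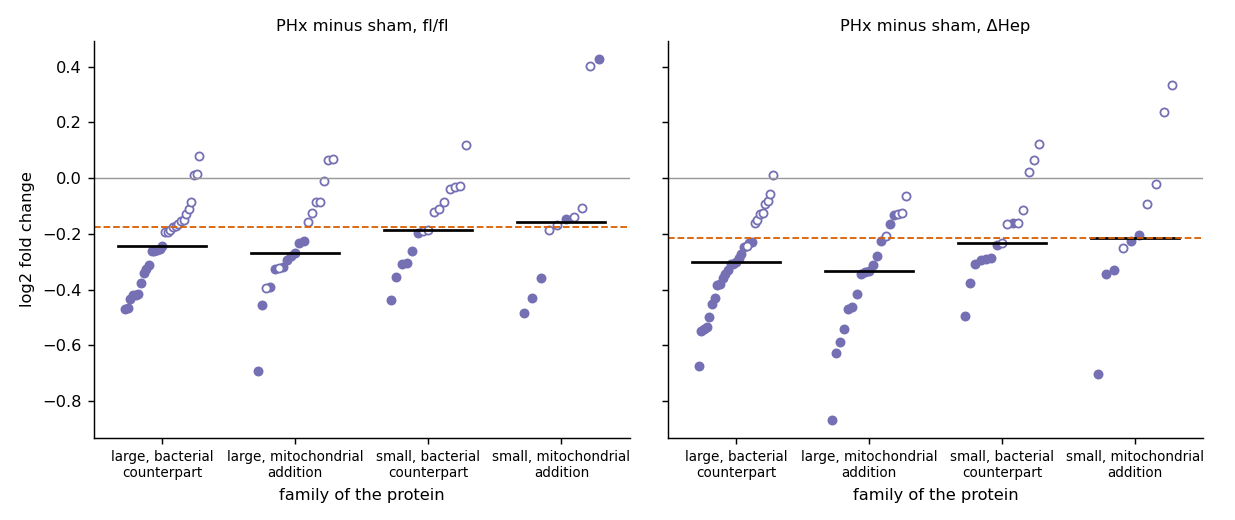
Each point is 1 of 73 members (Mrps36 belongs to no family), placed by its log2 fold change, PHx minus sham, on the deposited scale, in fl/fl (left) and ΔHep (right). Filled points were called at adjusted p below 0.05 and open points were not, black bars are family medians, and the dashed line is the median of the 5656 genes at level 5 or more (-0.17 and -0.21). The large subunit medians of -0.24 to -0.33 lie below the dashed lines and the small subunit medians of -0.16 to -0.23 lie near them. Scaled to positive controls, all of these medians are above 0 except that of the large subunit additions in fl/fl (-0.01).

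Among the large subunit members with bacterial counterparts, Mrpl14 had the smallest p in both genotypes. Its protein lies at the face toward the small subunit, where the assembly factor Malsu1 binds. Mrpl14 stood at 4.72, 4.94, 4.93 and 4.86 on sham and 4.43, 4.44, 4.42 and 4.42 on PHx fl/fl arrays, and at 4.80, 4.81, 4.75 and 4.78 on sham and 4.42, 4.46, 4.39 and 4.49 on PHx ΔHep arrays. All 8 PHx arrays were below all 8 sham arrays. The changes were -0.43 ± 0.05 (adjusted p = 8.72e-06) and -0.34 ± 0.05 (adjusted p = 8.22e-05), and both calls held with each array left out. After positive control scaling they were -0.17 (adjusted p = 0.129) and 0.12 (adjusted p = 0.228).

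Mrpl12 encodes the stalk protein that recruits translation factors, and it is also known to bind the mitochondrial RNA polymerase. It stood at 5.44, 5.64, 5.66 and 5.74 on sham and 5.21, 5.19, 5.02 and 5.56 on PHx fl/fl arrays, where PHx array 4 reached into the sham range. In ΔHep it stood at 5.52, 5.37, 5.73 and 5.46 after sham and 5.03, 5.14, 4.83 and 4.90 after PHx, with no overlap. The changes were -0.38 ± 0.11 (adjusted p = 0.0172) and -0.55 ± 0.11 (adjusted p = 0.00166). The fl/fl call was lost without sham array 4 (-0.34, adjusted p = 0.0507) and without PHx array 3 (-0.30, adjusted p = 0.0556). Mrpl15 fell in ΔHep by 0.67 ± 0.19 (adjusted p = 0.0127), where the PHx arrays held 5.26, 5.04, 4.66 and 4.54 and the sham arrays 5.42 to 5.70. In fl/fl it changed by -0.19 ± 0.19 (adjusted p = 0.453), with PHx arrays spread from 4.74 to 5.79 around the sham range. Mrpl24, on the outer face near the exit tunnel, changed by -0.42 ± 0.14 (adjusted p = 0.0297) and -0.54 ± 0.14 (adjusted p = 0.00718). In fl/fl its call was lost without any 1 of the 4 sham arrays or without PHx array 2 or 3, with values of -0.51 to -0.32 and adjusted p up to 0.0926.

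Mrpl34 and Mrpl36 encode small basic proteins of the large subunit. Mrpl34 stood at 4.03, 3.95, 4.10 and 4.10 after sham and 3.54, 3.63, 3.37 and 3.77 after PHx in fl/fl, and at 3.76, 3.88, 3.91 and 4.08 and then 3.66, 3.41, 3.41 and 3.02 in ΔHep. The operations did not overlap, with changes of -0.47 ± 0.11 (adjusted p = 0.00640) and -0.53 ± 0.11 (adjusted p = 0.00263). Mrpl36 changed by -0.34 ± 0.10 (adjusted p = 0.0167) and -0.50 ± 0.10 (adjusted p = 0.00150), the first being lost without array 3 of sham fl/fl (-0.30, adjusted p = 0.0558) or PHx array 1 (-0.30, adjusted p = 0.0517). Mrpl32, which is known to be cleaved by the m-AAA protease before it enters the ribosome, changed by -0.42 ± 0.10 (adjusted p = 0.00688) and -0.38 ± 0.10 (adjusted p = 0.0108). Mrpl18 changed by -0.47 ± 0.10 (adjusted p = 0.00389) and -0.30 ± 0.10 (adjusted p = 0.0402), with an overlap of the ΔHep arrays. Its ΔHep call was lost without sham array 1, 3 or 4 or PHx array 1, 3 or 4, with values of -0.37 to -0.22 and adjusted p up to 0.128. Mrpl32 and Mrpl18 stood 0.080 and 0.16 higher after PHx in ΔHep when positive controls were subtracted.

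Mrpl28 was called in fl/fl alone (-0.31 ± 0.05, adjusted p = 5.51e-04, against -0.12 ± 0.05 and adjusted p = 0.0885 in ΔHep), and Mrpl2, near the peptidyl transferase centre, in ΔHep alone (-0.36 ± 0.06, adjusted p = 2.93e-04, against -0.15 ± 0.06 and adjusted p = 0.0586). The genotype test of these changes is given below and called neither. The Mrpl2 change in fl/fl was called without sham array 2 (-0.19, adjusted p = 0.0279) or PHx array 2 (-0.18, adjusted p = 0.0459). Mrpl47 was called in neither (0.08 ± 0.09 and -0.13 ± 0.09). Mrpl33 stood at a mean level of 2.25, near the highest array median of the negative controls (2.12), and its changes of 0.01 ± 0.04 in both genotypes are uninformative. Mrpl33, Mrpl48 and Mrpl23 are uncertain, since Mrpl33 and Mrpl48 are annotated to several Entrez genes and Mrpl48 and Mrpl23 have pseudogene copies.

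Among the mitochondrial additions to the large subunit, Mrpl49 had the largest change in both genotypes and the widest spread. It stood at 5.68, 5.83, 5.90 and 6.04 on sham and 5.59, 5.07, 4.52 and 5.50 on PHx fl/fl arrays. In ΔHep it stood at 5.60, 5.69, 5.78 and 5.85 after sham and at 5.39, 5.06, 4.87 and 4.15 after PHx. The operations did not overlap, although PHx fl/fl array 1 lay just under the lowest sham array, and the PHx SD was 0.49 in fl/fl and 0.53 in ΔHep against 0.15 and 0.11 after sham. The changes were -0.69 ± 0.24 (adjusted p = 0.0367), a level 0.619 times that of sham, and -0.87 ± 0.24 (adjusted p = 0.0119), 0.549 times. The fl/fl call was lost without sham array 2, 3 or 4 or PHx array 2 or 3, and its weakest value was -0.48 (adjusted p = 0.115) without PHx array 3. The ΔHep call held with each array left out, from -1.04 to -0.63.

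Mrpl43 stood at 5.47, 5.64, 5.53 and 5.56 on sham and 5.22, 5.32, 5.34 and 5.21 on PHx fl/fl arrays, and at 5.58, 5.68, 5.81 and 5.63 on sham and 5.32, 5.21, 5.08 and 4.75 on PHx ΔHep arrays. The ranges were apart in both genotypes, with changes of -0.28 ± 0.09 (adjusted p = 0.0350) and -0.59 ± 0.09 (adjusted p = 3.00e-04). The fl/fl call was lost without sham array 2, 3 or 4 or PHx array 1, 2 or 4, with adjusted p up to 0.0892. Mrpl38 changed by -0.45 ± 0.12 (adjusted p = 0.0105) and -0.46 ± 0.12 (adjusted p = 0.00915, with PHx ΔHep array 1 inside the sham range), and Mrpl42 and Mrpl50 were called in ΔHep, by -0.63 ± 0.17 (adjusted p = 0.0107) and -0.54 ± 0.15 (adjusted p = 0.0115). In fl/fl Mrpl42 and Mrpl50 changed by -0.39 ± 0.17 (adjusted p = 0.0858) and -0.32 ± 0.15 (adjusted p = 0.110). Mrpl42 passed in fl/fl without PHx fl/fl array 4 (-0.53, adjusted p = 0.0244). Mrpl50 passed without PHx ΔHep array 4, which left its value at -0.32 and lowered its adjusted p to 0.0207.

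Mrpl41 changed by -0.27 ± 0.07 (adjusted p = 0.0124) and -0.33 ± 0.07 (adjusted p = 0.00326). Mrpl44, whose protein has an RNase III-like fold, changed by -0.23 ± 0.08 (adjusted p = 0.0362) and -0.34 ± 0.08 (adjusted p = 0.00413), and its fl/fl call was lost without sham array 1 or 2 or PHx array 1, 2 or 4 (adjusted p up to 0.0971). Mrpl40 changed by -0.29 ± 0.06 (adjusted p = 0.00121) and -0.17 ± 0.06 (adjusted p = 0.0334), the second being lost without any 1 of the 4 sham ΔHep arrays or PHx array 3 or 4 (adjusted p up to 0.108). Mrps30 and Mrpl45 did not pass in either genotype. Mrps30 changed by 0.07 ± 0.09 and -0.06 ± 0.09 (adjusted p = 0.591 and 0.623). Mrpl58, the ribosome-bound peptidyl-tRNA hydrolase, is annotated on the array under its older symbol Ict1 and is therefore outside the 74. It changed by -0.18 ± 0.05 (adjusted p = 0.0203) and -0.19 ± 0.05 (adjusted p = 0.0156), which missed the threshold without array 1 of the sham or 4 of the PHx group in fl/fl (adjusted p up to 0.0556) and without array 3 of the sham or 4 of the PHx group in ΔHep (adjusted p up to 0.0533).

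In the small subunit, Mrps12, the counterpart of a protein of the bacterial decoding centre, was called in both genotypes. It stood at 5.82, 5.75, 5.85 and 5.85 on sham and 5.46, 5.42, 5.52 and 5.45 on PHx fl/fl arrays, and at 5.77, 5.82, 5.89 and 5.87 on sham and 5.57, 5.64, 5.36 and 5.28 on PHx ΔHep arrays. No PHx array reached the sham range. The changes were -0.35 ± 0.07 (adjusted p = 0.00127) and -0.37 ± 0.07 (adjusted p = 7.39e-04), and they held with each array left out. After positive control scaling they were -0.10 (adjusted p = 0.337) and 0.089 (adjusted p = 0.317). Mrps24, another bacterial counterpart, changed by -0.44 ± 0.08 (adjusted p = 9.88e-04) and -0.29 ± 0.08 (adjusted p = 0.0136). Mrps17 was called in ΔHep (-0.31 ± 0.08, adjusted p = 0.00624) and not in fl/fl (-0.03 ± 0.08, adjusted p = 0.789).

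Mrps22 and Mrps27, mitochondrial additions to the small subunit, were among the 10 largest called changes in fl/fl on the deposited scale. Mrps22 stood at 5.38, 5.40, 5.29 and 5.42 on sham and 4.94, 4.88, 4.68 and 5.04 on PHx fl/fl arrays, with the ranges well apart (-0.48 ± 0.10, adjusted p = 0.00267). In ΔHep it stood lower already after sham, at 4.96, 5.03, 5.12 and 5.16, and PHx arrays of 4.82, 5.15, 4.75 and 4.56 overlapped that range (-0.25 ± 0.10, adjusted p = 0.0766). PHx ΔHep array 2 is the one inside it, and without it the change was -0.36 (adjusted p = 0.00544). Mrps27, which carries pentatricopeptide repeats, stood at 5.48, 5.19, 5.15 and 5.45 on sham and 5.08, 5.08, 4.41 and 4.98 on PHx fl/fl arrays (-0.43 ± 0.14, adjusted p = 0.0310). Without PHx fl/fl array 3, the lowest, that change was -0.27 (adjusted p = 0.0829), and it also missed the threshold without sham array 1 (adjusted p = 0.0855) or 4 (adjusted p = 0.0797). In ΔHep Mrps27 fell from 5.11, 5.24, 5.39 and 5.59 to 4.69, 4.73, 4.65 and 4.46, with no overlap (-0.70 ± 0.14, adjusted p = 0.00176). Mrps25, at a mean level of 2.88, changed by -0.36 ± 0.09 (adjusted p = 0.00646) and -0.34 ± 0.09 (adjusted p = 0.00780).

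Mrps31 was the only member called higher on the deposited scale. It stood at 5.63, 5.69, 5.45 and 5.77 on sham and 5.90, 6.43, 6.18 and 5.74 on PHx fl/fl arrays, so PHx array 4 lay inside the sham range. The change was 0.43 ± 0.14 (adjusted p = 0.0297), and it was lost without sham array 1 (0.42, adjusted p = 0.0575) or 3 (0.36, adjusted p = 0.0906), without PHx array 2 (0.30, adjusted p = 0.0984) or 3 (0.39, adjusted p = 0.0738), and with array medians subtracted (0.32, adjusted p = 0.0652). PHx fl/fl array 2 also held the highest neutrophil marker mean (4.12), whose part in the result was not tested. In ΔHep it stood at 5.41, 5.50, 5.69 and 5.93 after sham and 5.70, 5.83, 5.97 and 6.00 after PHx, which overlap (0.24 ± 0.14, adjusted p = 0.210). Mrps18b, picked out after its values were seen, had changes of similar size in both genotypes that did not pass (0.40 ± 0.19, adjusted p = 0.117, and 0.33 ± 0.19, adjusted p = 0.192). Mrps10 was the only member whose PHx fl/fl arrays all lay above its sham arrays (0.12 ± 0.05, adjusted p = 0.0799), as did 12.0% of all genes.

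**Figure D3:**
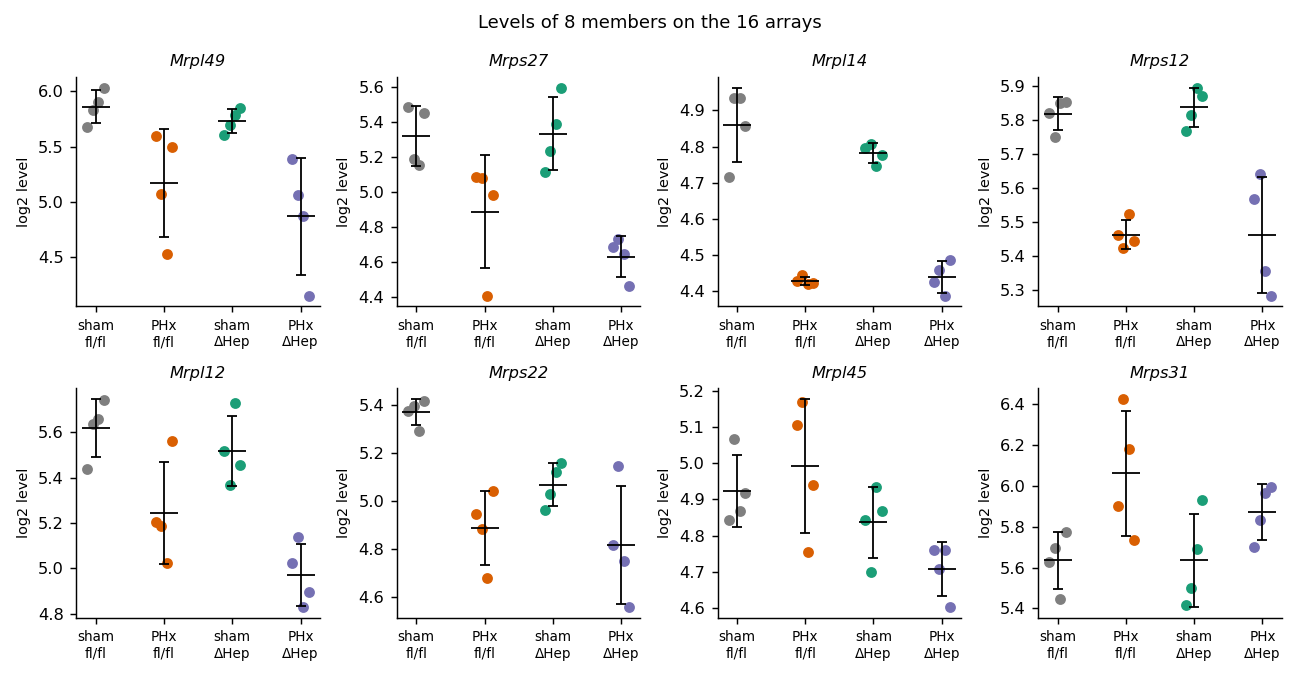
Each point is 1 array, 4 in each group, and the vertical axis is the log2 level as deposited, on its own scale for each of 8 members; bars are the group mean and SD. Mrpl14 and Mrps12 show separated groups with small SD, Mrpl49 and Mrps27 a wide spread after PHx in fl/fl with the lowest value on array 3 (4.52 and 4.41), Mrpl49 a wide spread after PHx in ΔHep too with 4.15 on array 4, and Mrps31 a PHx fl/fl mean above sham with 1 array at 5.74. With positive controls subtracted, Mrpl14 and Mrps12 stand higher after PHx in ΔHep (by 0.12 and 0.089) and 0 of these members are called lower.

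Counted by arrays, all 4 PHx values lay below all 4 sham values in 34 members in fl/fl and 46 in ΔHep, against 19.9% and 16.2% of all genes and 34.8% and 35.4% of the genes at level 5 or more. Between genotypes, 29 members were called lower in both, 6 in fl/fl alone and 19 in ΔHep alone, 1 (Mrps31) was called higher in fl/fl, and 19 were called in neither direction in either genotype. Across the 74 members the changes of the genotypes had Pearson's r = 0.77, and across the 5656 well-measured genes r = 0.88, with the arrays of each genotype separate but the scaling common to them. Of the calls of lower, 14 in fl/fl and 24 in ΔHep also held after cyclic loess. All 35 and 48 held after quantile normalization and after subtraction of array medians, which enlarged the fall, so cyclic loess alone set the joint count. The share of all genes whose calls held is not given here. Mrpl14, Mrpl22, Mrpl32, Mrpl34, Mrpl41, Mrps12 and Mrps25 were the 7 members whose calls held in both genotypes, and 0 of them were called with positive controls subtracted. Mrpl22, whose bacterial counterpart lines the exit tunnel, changed by -0.42 ± 0.09 and -0.43 ± 0.09 (adjusted p = 0.00221 and 0.00165). With each array left out, 20 members remained lower throughout in fl/fl and 33 in ΔHep. The share of all genes that remained so is not given here, so these counts are not a result about the members alone.

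**Figure D4:**
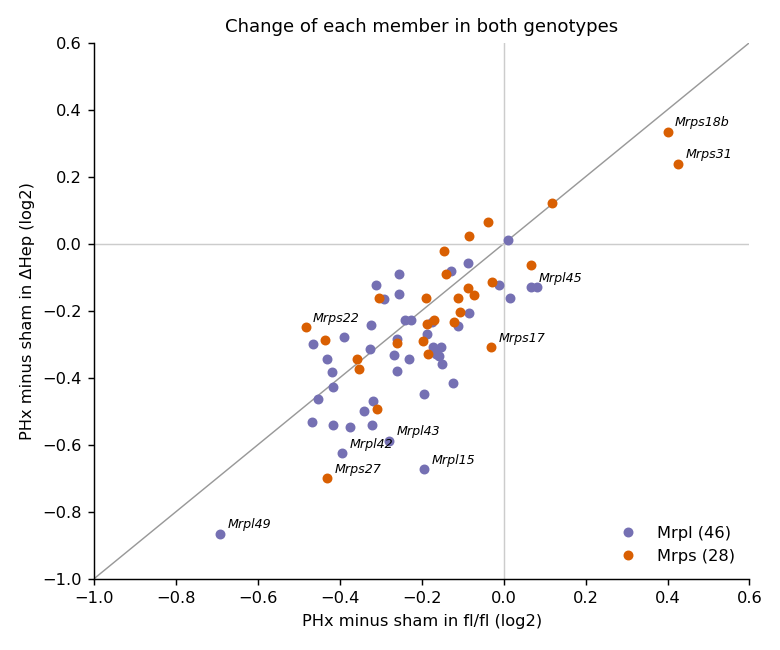
Each point is 1 of 74 members, 46 Mrpl and 28 Mrps, with the log2 change PHx minus sham in fl/fl on the horizontal axis and in ΔHep on the vertical axis, both on the deposited scale. The diagonal marks equal change. Of the members, 50 lie below it, and Mrpl49 (-0.69 and -0.87) and Mrps31 (0.43 and 0.24) lie near its ends. When positive controls are subtracted, 44 members lie above 0 in fl/fl and 62 in ΔHep.

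The genotype itself gave no call among the members. In limma over all genes, 0 of 74 passed between ΔHep and fl/fl after sham (0.0133% of all genes did), 0 after PHx (0.143%) and 0 averaged over both operations (0.219%). The difference between genotypes in the PHx change called 0 members and 0 of all genes (0.0%). At an unadjusted p under 0.05 the members numbered 4, 8, 9 and 5 in these 4 contrasts (5.41%, 10.8%, 12.2% and 6.76%), against 9.26%, 7.47%, 5.83% and 11.3% of all genes and 7.39%, 9.51%, 9.21% and 7.51% of the genes at level 5 or more. The medians of these 4 contrasts over the members were -0.02, -0.08, -0.06 and -0.06, and 50 of 74 members had a larger fall or smaller rise in ΔHep. The SE of the difference in change ranged from 0.06 to 0.34 (median 0.12), so a modest difference in a single gene could be missed, and the missing calls do not show that the genotypes act alike.

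The members nearest to a call are given as values. After sham these were Mrps11 (-0.15 ± 0.05, adjusted p = 0.424), Mrps22 (-0.30 ± 0.10, adjusted p = 0.426) and Mrpl40 (-0.14 ± 0.06, adjusted p = 0.495). Mrps22 on the 4 sham ΔHep arrays (4.96 to 5.16) lay below the sham fl/fl arrays (5.29 to 5.42). After PHx the smallest p belonged to Mrpl45, whose protein tethers the ribosome to the inner membrane at the exit tunnel. Mrpl45 stood at 5.11, 5.17, 4.75 and 4.94 on PHx fl/fl and 4.76, 4.71, 4.76 and 4.60 on PHx ΔHep arrays, which overlap through fl/fl array 3 (-0.29 ± 0.08, adjusted p = 0.356). On sham arrays it stood at 4.84, 5.07, 4.87 and 4.92 in fl/fl and 4.84, 4.70, 4.93 and 4.87 in ΔHep. Mrpl47 and Mrpl2 followed after PHx (-0.27 ± 0.09, adjusted p = 0.464, and -0.16 ± 0.06, adjusted p = 0.502). Averaged over the operations, the smallest p belonged to Mrpl45 (-0.19 ± 0.06, adjusted p = 0.505), Mrpl46 (-0.14 ± 0.05, adjusted p = 0.557) and Mrpl47 (-0.16 ± 0.06, adjusted p = 0.712). For the difference in change it belonged to Mrps17 (-0.28 ± 0.11, adjusted p = 0.371), Mrpl2 (-0.21 ± 0.08, adjusted p = 0.375) and Mrpl28 (0.19 ± 0.08, adjusted p = 0.389).

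The lists of genes that work with the mitoribosome differed in how many were called lower on the deposited scale, where 20.8% of all genes (37.0% of those at level 5 or more) were called lower in fl/fl and 17.5% (40.3%) in ΔHep. All 4 measured mitoribosomal proteins with other names (Dap3, Chchd1, Ptcd3, Gadd45gip1) were called lower in both genotypes. Gadd45gip1 stood at 3.52 to 3.64 after sham and 2.99 to 3.06 after PHx in fl/fl, and at 3.59 to 3.69 and 3.00 to 3.38 in ΔHep (-0.54 ± 0.06, adjusted p = 1.50e-05, and -0.43 ± 0.06, adjusted p = 1.22e-04). Chchd1 changed by -0.59 ± 0.18 and -0.60 ± 0.18 (adjusted p = 0.0197 and 0.0171), calls lost without sham array 3 or 4 or PHx array 3 in fl/fl (adjusted p up to 0.0625) and without sham array 3 or PHx array 3 or 4 in ΔHep (adjusted p up to 0.0566). Scaled to positive controls, Gadd45gip1 was still called lower in fl/fl (-0.28, adjusted p = 0.0101), while the median of the 4 was -0.21 in fl/fl and 0.09 in ΔHep. Of 13 translation factors 5 were called lower in fl/fl (Mtif2, Tufm, Gfm2, Guf1 and Mtrf1, the list being read after the values were seen) and 7 in ΔHep, and 0 higher. Tufm, the elongation factor that delivers aminoacyl-tRNA, fell by 0.46 ± 0.11 (adjusted p = 0.00584) and by 0.68 ± 0.11 (adjusted p = 3.22e-04), and Gfm2, a ribosome recycling factor, by 0.46 ± 0.12 and 0.55 ± 0.12 (adjusted p = 0.00965 and 0.00314). Taco1, an activator of COX1 translation, was called in ΔHep (-0.65 ± 0.20, adjusted p = 0.0196), but not without PHx ΔHep array 4 (-0.45, adjusted p = 0.0619), and its fl/fl change was -0.45 ± 0.20 (adjusted p = 0.0939). The factors' medians turned after positive control scaling from -0.20 and -0.30 to 0.06 and 0.16.

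Of 16 mitochondrial aminoacyl-tRNA synthetases 10 and 11 were called lower, led by Cars2 (-0.67 ± 0.12 and -0.72 ± 0.12, adjusted p = 7.28e-04 and 3.51e-04, and still called lower with positive controls subtracted, -0.41 and -0.26) and Nars2 (-0.46 ± 0.12 and -0.57 ± 0.12, adjusted p = 0.00958 and 0.00246). Of 26 assembly and ribosomal RNA modification factors 7 were called lower in each genotype and 2 higher in fl/fl, Ddx28 and Trub2. Malsu1, Noa1 and Rbfa were among the lower ones (-0.51 ± 0.06, -0.43 ± 0.10 and -0.45 ± 0.09 in fl/fl, and -0.31 ± 0.06, -0.56 ± 0.10 and -0.52 ± 0.09 in ΔHep). The RNA helicase gene Ddx28 was higher in fl/fl (1.01 ± 0.29, adjusted p = 0.0150), with PHx arrays at 3.96, 4.95, 4.87 and 3.78 and sham arrays at 3.99, 3.12, 3.19 and 3.22. That call was lost without PHx fl/fl array 2 (0.82, adjusted p = 0.0514), the array with high neutrophil markers, whose part in the result was not tested. Of 12 genes for mitochondrial DNA upkeep and transcription 8 and 9 were called lower, Top1mt, a mitochondrial topoisomerase, by 0.44 ± 0.08 and 0.52 ± 0.08. Slirp, the partner of Lrpprc in mitochondrial RNA stability, changed by -0.38 ± 0.11 (adjusted p = 0.0188) and -0.33 ± 0.11 (adjusted p = 0.0403), with calls lost without sham array 3 or 4 or PHx array 1 in fl/fl (adjusted p up to 0.0568) and without any of 6 of the 8 ΔHep arrays (adjusted p up to 0.121). Scaled to positive controls, the medians of these 3 lists were -0.03, 0.13 and 0.01 in fl/fl and 0.24, 0.31 and 0.20 in ΔHep.

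Of 9 regulators of nuclear genes for mitochondrial proteins, 1 was called lower and 1 higher in fl/fl, and 2 lower in ΔHep. Ppargc1a, the coactivator PGC-1α, stood at 3.53, 4.24, 3.99 and 4.55 on sham and 5.11, 7.70, 5.05 and 5.75 on PHx fl/fl arrays (1.83 ± 0.44, adjusted p = 0.00574). Without PHx array 2, which also held the high neutrophil markers, its rise was 1.23 and was still called (adjusted p = 0.00251); the part of those markers was not tested. In ΔHep it stood at 4.12, 3.84, 3.96 and 3.92 after sham and 4.28, 4.39, 4.61 and 5.17 after PHx, all above sham, without passing the test (0.65 ± 0.44, adjusted p = 0.278, or 0.0400 without PHx fl/fl array 2). Yy1 changed by -0.38 ± 0.08 and -0.35 ± 0.08 (adjusted p = 0.00249 and 0.00398), which became 0.11 in ΔHep with positive controls subtracted. Gabpb2, a partner subunit of the ETS factor GABP, was called in ΔHep (-0.26 ± 0.07, adjusted p = 0.0123) and reached -0.19 ± 0.07 in fl/fl (adjusted p = 0.0560, or 0.0255 without PHx ΔHep array 4). Nrf1 and Gabpa were called in neither (0.14 ± 0.08 and 0.09 ± 0.08, and -0.06 ± 0.09 and -0.11 ± 0.09).

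Set beside the cytosolic ribosome, the mitochondrial one had the larger fall on the deposited scale by the median of the gene changes. By the median level on an array both fell. In fl/fl that level lay at 6.33 to 6.55 after sham and 6.01 to 6.26 after PHx for the cytosolic genes. For the members it lay at 5.06 to 5.22 and 4.73 to 4.99. In ΔHep the ranges were 6.33 to 6.49 and 6.05 to 6.22, and 4.97 to 5.16 and 4.60 to 4.80. Of 38 measured cytosolic ribosomal protein genes 7 were called lower and 4 higher in fl/fl, and 5 and 4 in ΔHep, with medians of -0.05 and -0.04 that turned to 0.04 and 0.06 after cyclic loess. Of 78 genes of the respiratory chain and ATP synthase, many of which work with the products of the mitochondrial ribosome, 27 were called lower and 1 higher in fl/fl and 35 and 0 in ΔHep, with medians of -0.16 and -0.19. Beside these counts, 20.8% and 17.5% of all genes were called lower, and 37.0% and 40.3% of the genes at level 5 or more. Called higher were 11.9% and 14.8% of all genes. Whether the lists differ from those shares was not tested. With positive controls subtracted the median changes were 0.21 and 0.42 for cytosolic ribosomal genes and 0.10 and 0.27 for the respiratory genes. They were 0.06 and 0.19 for the mitoribosomal genes, so each median changed sign. That subtraction shifts the change of every gene in a genotype by the same amount, so the order of the 3 lists could not change. The difference between the lists was not tested.

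**Figure D5:**
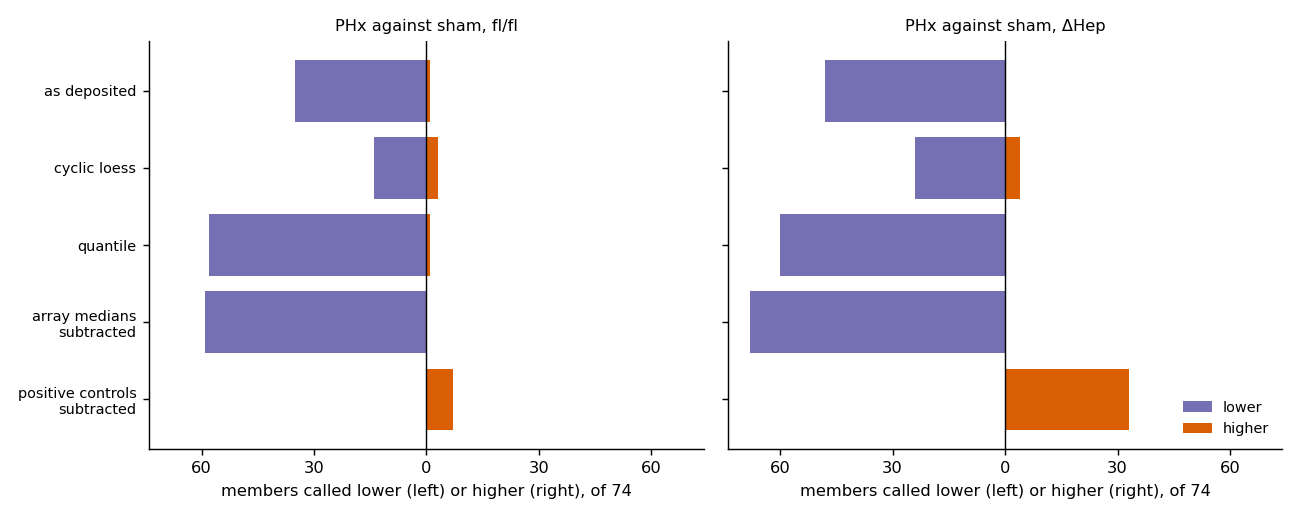
Bars give the number of the 74 members called lower (left of 0) or higher (right of 0) at adjusted p below 0.05 for PHx against sham in fl/fl (left panel) and ΔHep (right panel), with a row for each of 5 scalings. The lower counts run from 14 to 59 in fl/fl and from 24 to 68 in ΔHep over the first 4 rows. With positive controls subtracted 0 are lower and 7 and 33 are higher. Shares of all genes called under each scaling are not drawn.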

How the data were processed

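Whole-liver total RNA, biotin-labelled, was measured on 16 Affymetrix arrays. The deposited values are log2 levels of 72688 probe sets, summarised by the authors with RMA (background correction, quantile normalization and probe summary) per the submitters' processing notes. For RMA no version, and for the annotation no build, is given in the sources used here. Of the probe sets, 30604 had 1 symbol, 2146 several and 39938 none; the highest-mean probe set was taken for each of 30142 genes. Log2 levels are relative to a probe set's own affinity, so levels of different genes say nothing of their relative abundance; they served only to choose named genes and the well-measured genes.

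Each gene was fitted on all 16 arrays with limma 3.58.1 (R 4.3.3), 1 mean per group and 12 residual degrees of freedom. Values after ± are SE for changes and SD for levels. P-values were adjusted by Benjamini-Hochberg over all genes and called below 0.05. The fit was tested on simulated data. Arrays were numbered in accession order, as names only. The number of arrays limits the precision.

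Named members were the 10 largest called changes in each PHx comparison, the 3 smallest p-values in each other comparison, the 3 highest and 3 lowest levels and 8 fixed genes; pathway genes were the 2 largest called changes in each list and comparison. Members and lists were chosen with earlier results of these data known. Alternatives were 3 scalings, a filter on dim genes, another variance model, the compared groups alone, the mean over probe sets, array weights, updated symbols and each array left out. Scaling to positive controls (probe sets named as such) and the ZNF143/THAP11 motif search were added after seeing the data.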

Additional observations from a re-analysis of the deposited data

Results flagged for a closer look

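Within the 4 arrays of a group, 128 sets of values were searched for an array far from the other 3 (Dixon's test), which chance flags in about 1 of 20 sets, and 3 were found. Mrps27 stood at 4.41 on PHx fl/fl array 3, where the other 3 arrays held 4.98 to 5.08. Mrpl24 stood at 6.03 on sham fl/fl array 4, against 5.91 to 5.93. The mean level of the 74 members was 5.02 on sham fl/fl array 4, against 4.93 to 4.95.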

How the results depend on the processing

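The scaling between arrays changed the counts most. The median of all genes also moved under most scalings, and no share of all genes called under each scaling is given here. The counts are therefore not a result about the members alone. In fl/fl the members called lower numbered 14 after cyclic loess, 59 with array medians subtracted, 58 after quantile normalization and 0 with positive controls subtracted, against 35, and those called higher 3, 0, 1 and 7, against 1. With the compared groups alone 0 were higher, and with each array left out 0 to 2. In ΔHep 24 were lower after cyclic loess and 0 with positive controls, against 48, and 4 and 33 were higher, against 0, with 0 to 1 when an array was left out. The lower counts ran from 24 to 37 (fl/fl) and 37 to 50 (ΔHep) with each array left out, and were 26 and 40 when only genes at level 4 or more were tested, which tests fewer members. The sample titles carry a different number for each array but name no pairs between groups, so no paired analysis was made. The sham numbers run together and the PHx numbers lie before and after them. What the numbers stand for is not said.

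Log2 changes that turned sign are given next. Subtracting positive control or array medians shifts the change of every gene in a genotype by the same amount. Under these scalings the signs therefore turned only where a change was smaller than that shift. For the other settings the cause was not tested. With positive controls subtracted, the ΔHep changes became 0.21 for Mrps22, 0.16 for Mrpl18, 0.00015 for Mrpl38, 0.18 for Mrps24, 0.12 for Mrpl14, 0.080 for Mrpl32, 0.30 for Mrps11, 0.30 for Mrpl40, 0.33 for Mrpl45, 0.34 for Mrpl47, 0.10 for Mrpl2, 0.24 for Mrpl46, 0.15 for Mrps17, 0.34 for Mrpl28, 0.089 for Mrps12, 0.28 for Mrpl58, 0.13 for Mrpl41, 0.12 for Mrpl44, 0.40 for Mrps30, 0.12 for Mrps25, 0.031 for Gadd45gip1, 0.15 for Malsu1, 0.14 for Slirp, 0.11 for Yy1 and 0.20 for Gabpb2. In fl/fl they became 0.064 for Mrpl15, 0.11 for Mrpl2, 0.032 for Mrpl46, 0.23 for Mrps17, 0.080 for Mrpl58, 0.026 for Mrpl44 and 0.067 for Gabpb2. With array medians subtracted, the fl/fl changes became -0.040 for Mrpl45, -0.027 for Mrpl47, -0.041 for Mrps30 and -0.097 for Mrpl33, and Mrpl33 was -0.14 in ΔHep. After cyclic loess Mrpl45 was 0.0060 and Mrps30 0.022 in ΔHep, Mrps17 was 0.094 in fl/fl, and Mrpl33 was -0.0048 and -0.075. After quantile normalization Mrpl47 was -0.021 and Mrps30 -0.034 in fl/fl, and Mrpl33 was -0.11 and -0.15. With each array left out, Mrps17 ran from -0.072 to 0.033 in fl/fl, and Mrpl33 from -0.0036 to 0.028 in fl/fl and from -0.0025 to 0.033 in ΔHep.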
